A study of Homo sapiens with 12 samples.

Results

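The genes described here encode subunits of the complexes that hold histone deacetylases on chromatin (SIN3, NuRD, CoREST and NCoR), the histone acetyltransferases that oppose them, Polycomb repressive complex 2 (PRC2), the DNA methylation enzymes and a pair of histone methyltransferases. They were taken by symbol from a list of 50, and all 50 were found among the 26364 gene rows of the count table. RNA with poly(A) tails was sequenced from 2 B-cell lymphoma lines, JeKo-1 and Granta-519, grown in RPMI1640 with serum. The groups were chidamide at 4 µM for 12 h and vehicle for 12 h under the JeKo-1 label, and the same chidamide dose and vehicle for 12 h in Granta-519, with 3 libraries each (12 in all). The source field of the labels reads peripheral blood although the libraries come from cultured lines. The labels did not say whether replicates were separate cultures, so a p-value here reflects how these libraries varied, in part perhaps for technical reasons. Each line is a single model, and the labels name no genetic change in any group.

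Lysine acetylation of histone tails is written by acetyltransferases such as EP300 and CREBBP and removed by histone deacetylases. HDAC1 and HDAC2 act inside SIN3, NuRD and CoREST, each of which adds its own scaffold, chromatin readers and targeting factors, and HDAC3 acts inside NCoR. Chidamide (tucidinostat) is a benzamide that blocks these class I deacetylases and HDAC10. In B-cell lymphomas CREBBP, EP300, KMT2D, EZH2, TBL1XR1 and TET2 are known as recurrent mutation targets.

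The libraries held 12873642 to 16592694 counts, and the 50 members took 0.644% to 0.731% of them. The member share was 0.686% to 0.697% with chidamide and 0.719% to 0.731% with vehicle under the JeKo-1 label, and 0.644% to 0.650% against 0.677% to 0.706% in Granta-519. The summed level of 6 B-cell markers was 2778 to 4152 CPM (counts scaled to library size) in every library. SOX11 had 0 counts in each of the 6 libraries labelled JeKo-1, and CCND1 with SOX11 summed to 0.0828 to 1.06 CPM there against 1762 to 2318 CPM in Granta-519. Mantle cell lymphoma cells typically express CCND1, so these libraries go against their label, and JeKo-1 is used below as a label only. The 7 myeloid markers summed to 40.7 to 42.5 CPM with chidamide and 2.40 to 4.10 CPM with vehicle under the JeKo-1 label, where S100A8 and S100A9 stood at 0 with vehicle. In Granta-519 they summed to 96.1 to 104 CPM against 26.3 to 26.4 CPM, with S100A8 at 0 in all 6 libraries. ITGAM was the largest part in each group, at 24.2 CPM with chidamide and 2.42 CPM with vehicle under the JeKo-1 label. In Granta-519 ITGAM stood at 79.3 and 24.9 CPM in the same order. CSF1R came next in the chidamide groups, at 8.82 CPM under the JeKo-1 label and 19.7 CPM in Granta-519. With vehicle CSF1R stood at 0.176 and 0.974 CPM. The 7 T and NK cell markers summed to at most 7.68 CPM in any library, with CD3D at 0 in 3 of the 4 groups. NKG7 was the largest of them under the JeKo-1 label, at 4.59 CPM with chidamide and 3.29 CPM with vehicle. In Granta-519 the largest was CD8A with chidamide (1.59 CPM) and NKG7 with vehicle (0.475 CPM). CD3E had 68 counts with chidamide and 4 with vehicle under the JeKo-1 label, and 13 and 0 in Granta-519. The 6 epithelial and stromal markers summed to 35.1 to 39.0 CPM with chidamide and 25.7 to 29.5 CPM with vehicle under the JeKo-1 label, where EPCAM, KRT8, KRT18 and COL1A2 stood at 0 with vehicle, and to 79.5 to 85.2 CPM against 65.0 to 69.9 CPM in Granta-519. COL1A1 was the largest part in each group, at 31.6 and 26.7 CPM under the JeKo-1 label and 65.6 and 59.6 CPM in Granta-519. PECAM1 came next, at 5.08 and 1.09 CPM under the JeKo-1 label and 14.2 and 6.67 CPM in Granta-519. The part of these markers in the results was not tested. MYC, which the study's title concerns, had 203 ± 5.91 CPM with chidamide and 329 ± 8.48 CPM with vehicle under the JeKo-1 label, and 124 ± 3.63 CPM with chidamide and 85.1 ± 1.03 CPM with vehicle in Granta-519 (SD, n = 3 each).

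With chidamide, more of these genes fell than rose in both lines. Under the JeKo-1 label 28 of the 50 were lower and 11 were higher at an adjusted p under 0.05 (edgeR's quasi-likelihood test, adjusted over 15087 genes), where 31.1% of all tested genes were lower, 35.3% were higher and 66.4% changed either way. One of the 11 was RCOR2, which passed the filter on low counts only through Granta-519 and had 8 counts against 0 under the JeKo-1 label, and 10 were higher without it. In Granta-519, 26 were lower and 10 were higher, where 31.3% of all tested genes were lower, 39.6% were higher and 70.9% changed either way. The median log2 change of the members was -0.18 under the JeKo-1 label and -0.13 in Granta-519, against 0.04 and 0.08 over all tested genes in the same order. These medians do not move when RCOR2, which had no count in 1 group, is set at its bound. The split under the JeKo-1 label depends on scaling: with upper-quartile or library-size scaling, which shift the median change of all genes there by 0.15 and 0.13 log2 units, 16 members were higher and 21 lower. The TMM scaling factors were 1.019 to 1.026 in the chidamide libraries and 0.928 to 0.938 in the vehicle libraries of that label. Without the JeKo-1 vehicle replicate 2, which differed most from the other libraries of its group, 12 were higher and 27 lower. Bulk RNA cannot tell fewer cells expressing a gene from less RNA per cell.

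**Figure D1:**
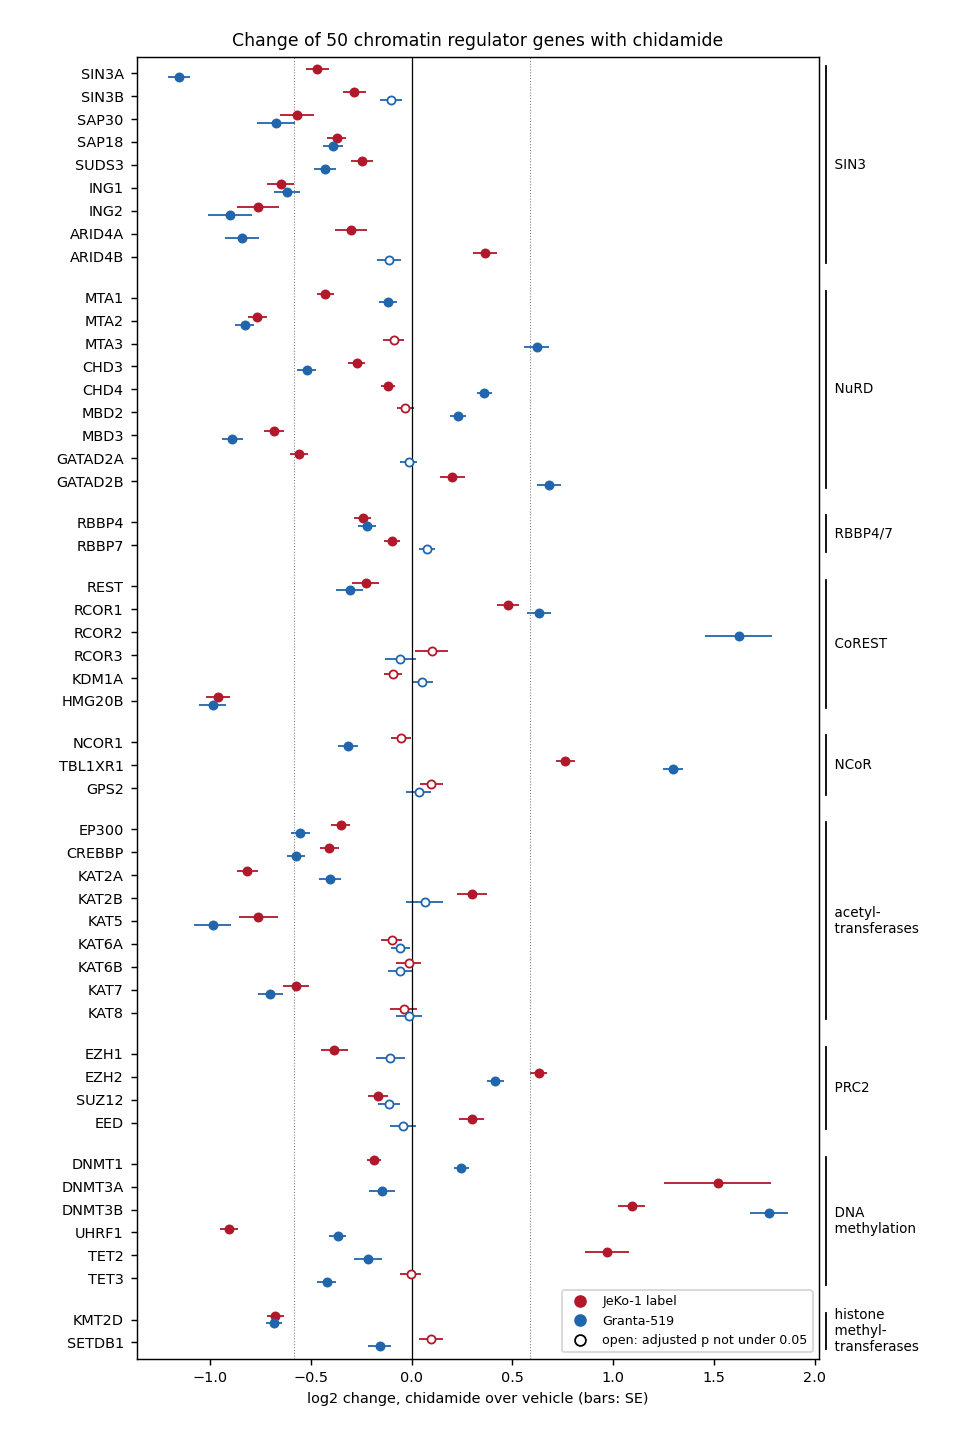
Log2 change with chidamide over vehicle for the 50 members, ordered by complex, with red points for libraries labelled JeKo-1 and blue points for Granta-519. Bars are standard errors, open points did not pass the adjusted threshold of 0.05, dotted lines mark a 1.5-fold change, and the JeKo-1 point of RCOR2 is left out because its vehicle libraries had no count. Of the 50 members, 28 fell and 11 rose under the JeKo-1 label, and 26 fell and 10 rose in Granta-519. Of all tested genes 31.1% fell and 35.3% rose under the JeKo-1 label, and 31.3% fell and 39.6% rose in Granta-519. With upper-quartile or library-size scaling 16 members rose and 21 fell under the JeKo-1 label.

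Set side by side, 21 members fell in both lines and 6 rose in both, where 22.4% and 24.1% of all tested genes did so. The members that fell in both were SIN3A, SAP30, SAP18, SUDS3, ING1, ING2 and ARID4A of SIN3, MTA1, MTA2, CHD3 and MBD3 of NuRD, RBBP4, REST and HMG20B, the acetyltransferases EP300, CREBBP, KAT2A, KAT5 and KAT7, and UHRF1 and KMT2D. GATAD2B, RCOR1, TBL1XR1, EZH2 and DNMT3B rose in both, and RCOR2 is the sixth, with too few counts under the JeKo-1 label to test in those 6 libraries alone. CHD4, DNMT1, DNMT3A and TET2 passed the test in opposite directions (5.16% of all tested genes did), but for each of these genes 1 of the 2 calls was lost under some alternative processing, and the sign of the CHD4 change turned as well, as given with each below. RCOR3, KDM1A, GPS2, KAT6A, KAT6B and KAT8 passed in neither line as reported. Of these only KAT8 passed in neither line under every alternative processing as well. All 50 members passed the filter on low counts.

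Promoters were read for the 6-letter E-box CACGTG, the sequence to which MYC and its partner MAX bind, which reads the same on both strands. Windows of 250 bases before to 50 bases after the start (RefSeq, GRCh38.p14) were at hand for 46 members, some with several starts. Of these, 7 held CACGTG in at least 1 window (15.2%), against 12.4% of 10858 tested genes and 8.78% of 27305 genes with a window. The 7 were RBBP4, KAT5, DNMT3A, TET2, TET3, KMT2D and SETDB1. Among the members that fell in both lines, 3 of the 20 with a window held it (15.0%). It was held by 0 of 5 that rose in both and by 2 of 4 called in opposite directions. A match is a run of letters and was not measured as a bound site in these data. The windows of KAT5 and KMT2D are shown as genes that fell in both lines, and those of TET2 and DNMT3A as genes whose change differed between the lines. Each is printed 5′ to 3′ on the strand of the gene, with the CACGTG in capitals.
KAT5, chr11:65712002-65712301, plus strand: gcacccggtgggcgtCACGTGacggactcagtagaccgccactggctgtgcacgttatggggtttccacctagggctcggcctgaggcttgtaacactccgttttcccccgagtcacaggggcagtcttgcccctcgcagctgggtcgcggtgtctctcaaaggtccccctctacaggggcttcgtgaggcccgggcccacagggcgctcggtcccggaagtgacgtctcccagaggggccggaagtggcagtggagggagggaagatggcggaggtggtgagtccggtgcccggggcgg
KMT2D, chr12:49060745-49061044, minus strand: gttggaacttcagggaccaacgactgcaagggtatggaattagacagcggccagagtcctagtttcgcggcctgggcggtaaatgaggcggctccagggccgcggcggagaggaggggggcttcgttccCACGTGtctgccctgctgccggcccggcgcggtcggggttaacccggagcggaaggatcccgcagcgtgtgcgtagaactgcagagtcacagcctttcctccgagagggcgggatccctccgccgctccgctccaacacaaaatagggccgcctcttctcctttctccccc
TET2, chr4:105145625-105145924, plus strand: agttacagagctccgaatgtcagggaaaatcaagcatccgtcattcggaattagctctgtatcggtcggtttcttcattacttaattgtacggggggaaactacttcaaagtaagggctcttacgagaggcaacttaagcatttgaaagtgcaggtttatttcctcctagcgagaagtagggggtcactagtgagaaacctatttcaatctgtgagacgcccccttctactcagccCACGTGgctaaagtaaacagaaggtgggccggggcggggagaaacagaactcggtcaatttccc
DNMT3A, chr2:25252266-25252565, minus strand: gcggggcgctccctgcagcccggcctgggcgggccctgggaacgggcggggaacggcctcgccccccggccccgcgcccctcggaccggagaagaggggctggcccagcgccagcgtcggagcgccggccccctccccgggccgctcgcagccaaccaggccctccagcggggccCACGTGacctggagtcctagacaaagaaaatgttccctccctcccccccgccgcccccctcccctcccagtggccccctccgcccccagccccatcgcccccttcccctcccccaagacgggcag
The E-box began 235 bases before the start in KAT5, 121 in KMT2D, 14 in TET2 and 75 in DNMT3A. These are distances to the start of the printed window: DNMT3A has 6 windows, of which a second holds the same E-box 127 bases before its start, and TET2 has 2, of which only the printed one holds it.

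SIN3 is built on the scaffolds SIN3A and SIN3B, which gather HDAC1 and HDAC2, the bridging proteins SAP30, SAP18 and SUDS3, the ING plant-homeodomain readers of methylated histone H3, and the ARID4 proteins. Of its 9 members listed here, 8 fell and 1 rose under the JeKo-1 label, and 7 fell and 0 rose in Granta-519, where 31.1% and 31.3% of all tested genes fell in the same order and 35.3% and 39.6% rose, with median log2 changes of -0.37 and -0.62 in the same order. SIN3A had 56.7, 54.9 and 57.1 CPM in chidamide libraries labelled JeKo-1, against 76.4, 74.8 and 82.6 CPM in vehicle libraries. Granta-519 gave 57.5, 55.5 and 56.4 CPM with chidamide, against 127, 130.5 and 120.4 CPM with vehicle. The chidamide libraries of both lines thus stood at about the same level, below every vehicle library. SIN3A fell by 0.47 ± 0.06 log2 units (SE) under the JeKo-1 label and by 1.16 ± 0.05 in Granta-519, and the difference of 0.69 ± 0.08 between these changes passed the test (edgeR adjusted p = 2.01e-10).

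ING2, a reader of trimethylated lysine on histone H3, had 11.6, 14 and 13.6 CPM with chidamide under the JeKo-1 label, against 21.8, 24.5 and 20 CPM with vehicle. Its values in Granta-519 were 11.4, 9.82 and 11.7 CPM with chidamide, against 22.7, 19.0 and 19.7 CPM with vehicle. The groups did not overlap in either line, and ING2 was 1.70-fold lower under the JeKo-1 label and 1.87-fold lower in Granta-519 with chidamide (edgeR adjusted p = 5.24e-09 and 1.21e-10). ING1, its paralog and a candidate tumour suppressor, had 30.2, 31.8 and 31.2 CPM with chidamide under the JeKo-1 label, against 46.8, 48.7 and 50.9 CPM with vehicle. Granta-519 gave 41.6, 39.7 and 43.0 CPM with chidamide, against 62.4, 62.4 and 65.9 CPM with vehicle. ING1 was 1.57-fold lower under the JeKo-1 label and 1.53-fold lower in Granta-519, with no overlap in either line (edgeR adjusted p = 2.87e-12 and 1.85e-12).

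SAP30, which bridges SIN3 to its deacetylases and to targeting factors, had 24.3, 23.3 and 24.6 CPM with chidamide under the JeKo-1 label, against 31.1, 39.6 and 36.9 CPM with vehicle. The Granta-519 libraries held 16.5, 17.2 and 17.4 CPM with chidamide, against 27.6, 24.1 and 29.9 CPM with vehicle. It was 1.48-fold lower under the JeKo-1 label and 1.60-fold lower in Granta-519 (edgeR adjusted p = 7.72e-08 and 7.08e-09), with vehicle libraries spread more widely than chidamide libraries. ARID4A, a retinoblastoma-binding subunit, had 28.4, 27.5 and 27.0 CPM with chidamide under the JeKo-1 label, against 37.2, 32.0 and 32.8 CPM with vehicle, and 18.4, 16.5 and 17.9 CPM with chidamide in Granta-519, against 30.4, 31.1 and 33.1 CPM with vehicle. All chidamide values were the lower ones, but the change differed, at -0.30 ± 0.08 under the JeKo-1 label and -0.84 ± 0.09 in Granta-519 (edgeR adjusted p of the difference = 0.000158). The fall under the JeKo-1 label did not pass with upper-quartile or library-size scaling or on the length-scaled score. Its paralog ARID4B went the other way under the JeKo-1 label, with 75.5 ± 1.84 CPM with chidamide and 58.8 ± 1.93 CPM with vehicle (SD, n = 3 each), a rise of 0.36 ± 0.06. In Granta-519 ARID4B had 69.5 ± 4.41 CPM with chidamide and 75.2 ± 3.42 CPM with vehicle, not a call (edgeR adjusted p = 0.0761), and the changes differed by 0.48 ± 0.08. The Granta-519 change of ARID4B passed in 3 of 20 alternatives.

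SAP18 had 133 ± 6.04 CPM with chidamide and 172 ± 4.39 CPM with vehicle under the JeKo-1 label, and 84.3 ± 1.61 CPM with chidamide and 110.5 ± 2.40 CPM with vehicle in Granta-519, falls of 0.37 log2 units under the JeKo-1 label and 0.39 in Granta-519. SUDS3 fell by 0.25 log2 units under the JeKo-1 label and by 0.43 in Granta-519, the first of which did not pass with upper-quartile or library-size scaling. SIN3B, the second scaffold, had 62.3 ± 4.70 CPM with chidamide and 75.8 ± 1.44 CPM with vehicle under the JeKo-1 label, a fall of 0.29 log2 units. In Granta-519 the change of SIN3B was -0.10 ± 0.06 (edgeR adjusted p = 0.0939), and the difference between its changes did not pass the test either (edgeR adjusted p = 0.0647). The Granta-519 change passed in 3 of 20 alternatives and the difference in 2 of 19.

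**Figure D2:**
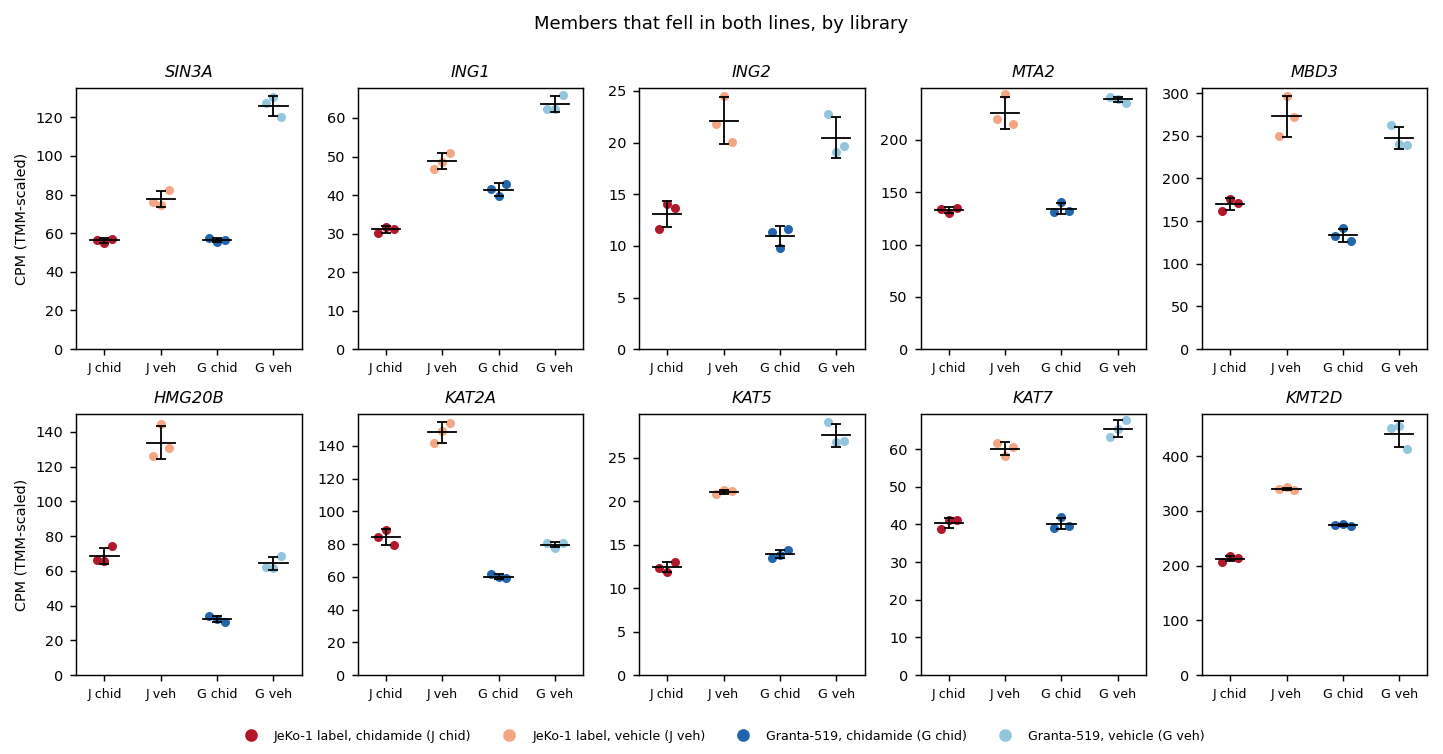
CPM of 10 members in each of the 12 libraries, with chidamide left of vehicle for the JeKo-1 label (red) and for Granta-519 (blue). Points are libraries, horizontal lines are means and bars are SD (n = 3), each vertical axis starts at 0, and in every panel the chidamide libraries of a line lie below its vehicle libraries.

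NuRD joins a deacetylase module with a nucleosome remodeller of the CHD family, MTA scaffolds, the methyl-CpG-binding proteins MBD2 or MBD3 and the GATAD2 linkers. Of 9 NuRD members, 6 fell and 1 rose under the JeKo-1 label, and 4 fell and 4 rose in Granta-519. The share that rose in Granta-519 is near the 39.6% of all tested genes, of which 35.3% rose under the JeKo-1 label and 31.1% and 31.3% fell. For 8 of the 9 the change differed between the lines, where 39.5% of all tested genes differed.

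MTA2, a scaffold that binds HDAC1 and HDAC2, had 134, 129.9 and 135 CPM with chidamide under the JeKo-1 label, against 219.6, 244 and 215 CPM with vehicle. For Granta-519 the values were 131, 140.3 and 132 CPM with chidamide, against 241, 239.5 and 236 CPM with vehicle. The levels were alike in the 2 lines, and MTA2 was 1.70-fold lower under the JeKo-1 label and 1.78-fold lower in Granta-519 with chidamide (edgeR adjusted p = 2.94e-21 and 8.32e-23). The difference between these changes was 0.06 ± 0.07 log2 units and did not pass. With vehicle MTA2 differed between the lines by -0.08 log2 units, which did not pass as reported (edgeR adjusted p = 0.105) but did in 6 of 20 alternatives. MTA3, a paralog best known from B-cell and epithelial repression programmes, had 93.4, 86.2 and 92.7 CPM with chidamide under the JeKo-1 label, against 95.4, 97.1 and 97.7 CPM with vehicle. In Granta-519 it had 50.7, 50.9 and 50.1 CPM with chidamide, against 33.8, 32.7 and 32.2 CPM with vehicle. It was thus 1.54-fold higher in Granta-519 (edgeR adjusted p = 7.67e-13), while the change of -0.09 ± 0.05 under the JeKo-1 label missed the threshold (edgeR adjusted p = 0.135), and the difference of -0.71 ± 0.08 passed (edgeR adjusted p = 3e-10). MTA1, the third paralog, fell by 0.43 ± 0.04 under the JeKo-1 label and by 0.12 ± 0.04 in Granta-519, where the call was lost with RLE or upper-quartile scaling, in DESeq2, and without Granta-519 chidamide replicate 1 or 3 or vehicle replicate 1. Compared per length on the deposited length-scaled score, MTA3 stayed below MTA1 and MTA2 in every group: in Granta-519 it stood at 1.45 ± 0.01 with chidamide and 0.952 ± 0.024 with vehicle, against 8.90 ± 0.32 and 15.9 ± 0.19 for MTA2.

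MBD3, which recruits NuRD without strong binding to methylated DNA, had 162, 176 and 171 CPM with chidamide under the JeKo-1 label, against 249, 297 and 272 CPM with vehicle. Granta-519 gave 132, 142 and 126 CPM with chidamide, against 263, 241 and 239 CPM with vehicle. No chidamide library reached a vehicle library, and MBD3 was 1.61-fold lower under the JeKo-1 label and 1.85-fold lower in Granta-519 (edgeR adjusted p = 9.85e-17 and 1.35e-20). MBD2, its methyl-CpG-binding paralog, had 139 ± 2.99 CPM with chidamide and 142 ± 6.90 CPM with vehicle under the JeKo-1 label, a change of -0.03 that turned to 0.11, 0.10 and 0.10 with upper-quartile scaling, library-size scaling and the score. In Granta-519 MBD2 had 405 ± 5.06 CPM with chidamide and 345 ± 6.66 CPM with vehicle, a rise of 0.23 ± 0.04 (edgeR adjusted p = 9.54e-07).

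GATAD2A and GATAD2B, which link the remodelling and deacetylase modules, also differed from each other. GATAD2B had 64.8, 60.6 and 61.1 CPM with chidamide under the JeKo-1 label, against 49.7, 60.1 and 52.6 CPM with vehicle. Its values in Granta-519 were 113, 116 and 112 CPM with chidamide, against 74.9, 72.8 and 64.8 CPM with vehicle. The groups were far apart in Granta-519 (1.60-fold higher, edgeR adjusted p = 2.95e-15) and close under the JeKo-1 label (1.15-fold higher, edgeR adjusted p = 0.0047), where leaving out JeKo-1 vehicle replicate 1 raised the adjusted p to 0.05. GATAD2A had 235 ± 8.90 CPM with chidamide and 347 ± 19.5 CPM with vehicle under the JeKo-1 label, a fall of 0.56 ± 0.04. In Granta-519 GATAD2A had 227 ± 8.18 CPM with chidamide and 229 ± 7.46 CPM with vehicle (edgeR adjusted p = 0.761), and the difference of -0.54 ± 0.06 passed.

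CHD4, the main NuRD remodeller in most cells, had 665, 667 and 671 CPM with chidamide under the JeKo-1 label, against 711, 753 and 709.5 CPM with vehicle. The Granta-519 libraries held 845, 865 and 859 CPM with chidamide, against 689, 672 and 638 CPM with vehicle. The Granta-519 chidamide libraries were the highest of the 12 for CHD4, a rise of 0.36 ± 0.04 log2 units (edgeR adjusted p = 8.69e-13). The change under the JeKo-1 label was -0.12 ± 0.04 (edgeR adjusted p = 0.00421) but turned to 0.028, 0.013 and 0.016 with upper-quartile scaling, library-size scaling and the score, and was not called without a count filter or without JeKo-1 vehicle replicate 2. CHD3, the alternative remodeller, had 296 ± 2.30 CPM with chidamide and 357 ± 5.49 CPM with vehicle under the JeKo-1 label, and 97.5 ± 3.64 CPM with chidamide and 140.0 ± 8.66 CPM with vehicle in Granta-519, falls of 0.27 log2 units under the JeKo-1 label and 0.52 in Granta-519. In the annotation 87.2% of the exonic bases of CHD4 also lie in other genes on 1 or the other strand, so its counts are uncertain if the counting shared such reads. MTA1, MBD3, RBBP4 and KAT2A also share more than 10% of their exonic bases with other annotated genes.

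RBBP4 and RBBP7 are histone-binding proteins shared by SIN3, NuRD and PRC2. RBBP4 had 304 ± 2.92 CPM with chidamide and 360.2 ± 16.1 CPM with vehicle under the JeKo-1 label, and 136 ± 1.40 CPM with chidamide and 158 ± 0.671 CPM with vehicle in Granta-519, falls of 0.24 log2 units under the JeKo-1 label and 0.22 in Granta-519. RBBP7 had 343 ± 8.02 CPM with chidamide and 367 ± 18.4 CPM with vehicle under the JeKo-1 label, a change of -0.10 that was called in 7 of 20 alternatives and turned to 0.048, 0.034 and 0.038 with upper-quartile scaling, library-size scaling and the score. In Granta-519 RBBP7 had 223 ± 1.07 CPM with chidamide and 211 ± 2.97 CPM with vehicle, which did not pass (edgeR adjusted p = 0.101).

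CoREST couples HDAC1 and HDAC2 to the lysine demethylase KDM1A through an RCOR scaffold, with HMG20B as a DNA-binding subunit, and is brought to neuronal genes by REST. Of its 6 members HMG20B and REST fell in each line and RCOR1 rose in each, where 31.1% and 31.3% of all tested genes fell and 35.3% and 39.6% rose. RCOR2 rose in Granta-519, and its call under the JeKo-1 label rests on 8 counts against 0. The difference between the lines passed the edgeR test for none of the 6 as reported, but for each except HMG20B it passed in 1 to 3 of the 19 alternatives.

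HMG20B had 66.1, 65.9 and 74.2 CPM with chidamide under the JeKo-1 label, against 126, 145 and 131 CPM with vehicle. For Granta-519 the values were 34.3, 32.5 and 30.5 CPM with chidamide, against 62.4, 61.9 and 68.7 CPM with vehicle. HMG20B was 1.95-fold lower under the JeKo-1 label and 1.98-fold lower in Granta-519 with chidamide, although its level under the JeKo-1 label was about double that in Granta-519 (edgeR adjusted p = 4.8e-21 and 3.93e-19). The changes differed by 0.03 ± 0.09 log2 units.

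RCOR1, the main CoREST scaffold, had 96.1, 93.5 and 93.8 CPM with chidamide under the JeKo-1 label, against 71.8, 64.3 and 67.4 CPM with vehicle. In Granta-519 it had 76.7, 74.5 and 78.3 CPM with chidamide, against 47.5, 50.6 and 50.1 CPM with vehicle. All chidamide libraries were above all vehicle libraries of the same line, by 1.39-fold under the JeKo-1 label and 1.55-fold in Granta-519 (edgeR adjusted p = 6.81e-11 and 2.55e-14). RCOR2, a scaffold best known from neural progenitors and stem cells, had 4, 3 and 1 counts in the chidamide libraries labelled JeKo-1, against 0 counts in each vehicle library. Taking 3 counts as the limit that 0 counts over the group allow, RCOR2 came to 2.29-fold higher with chidamide there. That value takes the 8 chidamide counts as exact, so it is not a firm lower limit. In Granta-519 RCOR2 had 12.9, 12.6 and 10.1 CPM with chidamide, against 4.11, 3.73 and 3.73 CPM with vehicle, 3.08-fold higher (edgeR adjusted p = 1.47e-12). The counts under the JeKo-1 label are too few to compare its change with that in Granta-519.

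REST fell by 0.23 ± 0.07 log2 units under the JeKo-1 label, a call lost with upper-quartile or library-size scaling and on the score, and by 0.31 ± 0.07 in Granta-519. KDM1A, the demethylase, had 179.7 ± 3.58 CPM with chidamide and 192 ± 6.52 CPM with vehicle under the JeKo-1 label, and 82.3 ± 1.68 CPM with chidamide and 79.3 ± 0.443 CPM with vehicle in Granta-519, neither of which passed (edgeR adjusted p = 0.0671 and 0.345). RCOR3 had log2 changes of 0.10 ± 0.08 under the JeKo-1 label and -0.06 ± 0.08 in Granta-519, which did not pass either. Of the deacetylases of this complex, HDAC2 rose by 0.31 ± 0.04 log2 units under the JeKo-1 label and by 0.25 ± 0.04 in Granta-519 (edgeR adjusted p = 4.6e-09 and 1.33e-06), while HDAC1 had changes of 0.08 ± 0.04 and 0.06 ± 0.04 in the same order that did not pass (edgeR adjusted p = 0.0664 and 0.173).

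NCoR brings HDAC3 to nuclear receptors and to BCL6 through scaffolds such as NCOR1, and TBL1XR1 and GPS2 are core subunits. TBL1XR1 had 283, 265 and 275 CPM with chidamide under the JeKo-1 label, against 165, 148 and 172 CPM with vehicle. Granta-519 gave 219.9, 228 and 243 CPM with chidamide, against 97.4, 94.8 and 88.6 CPM with vehicle. TBL1XR1 was 1.70-fold higher under the JeKo-1 label and 2.46-fold higher in Granta-519 (edgeR adjusted p = 2.55e-20 and 2.78e-29), and the rise was the smaller one under the JeKo-1 label by 0.54 ± 0.07 log2 units. NCOR1, the corepressor scaffold, had 148 ± 2.06 CPM with chidamide and 154 ± 3.89 CPM with vehicle under the JeKo-1 label (edgeR adjusted p = 0.329), and 94.5 ± 4.03 CPM with chidamide and 118 ± 4.82 CPM with vehicle in Granta-519, a fall of 0.31 ± 0.05. GPS2 had 94.1 ± 2.35 CPM with chidamide and 87.8 ± 6.88 CPM with vehicle under the JeKo-1 label, and 52.7 ± 2.51 CPM with chidamide and 51.5 ± 1.35 CPM with vehicle in Granta-519, with no call as reported. Under the JeKo-1 label GPS2 was called higher in 6 of 20 alternatives. Of the exonic bases of GPS2, 86.7% also lie in another annotated gene on the same strand. Its counts are uncertain if the counting used an annotation with that gene. HDAC3 rose by 0.15 ± 0.05 under the JeKo-1 label (edgeR adjusted p = 0.0122), and its change of 0.10 ± 0.05 in Granta-519 did not pass (edgeR adjusted p = 0.102).

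**Figure D3:**
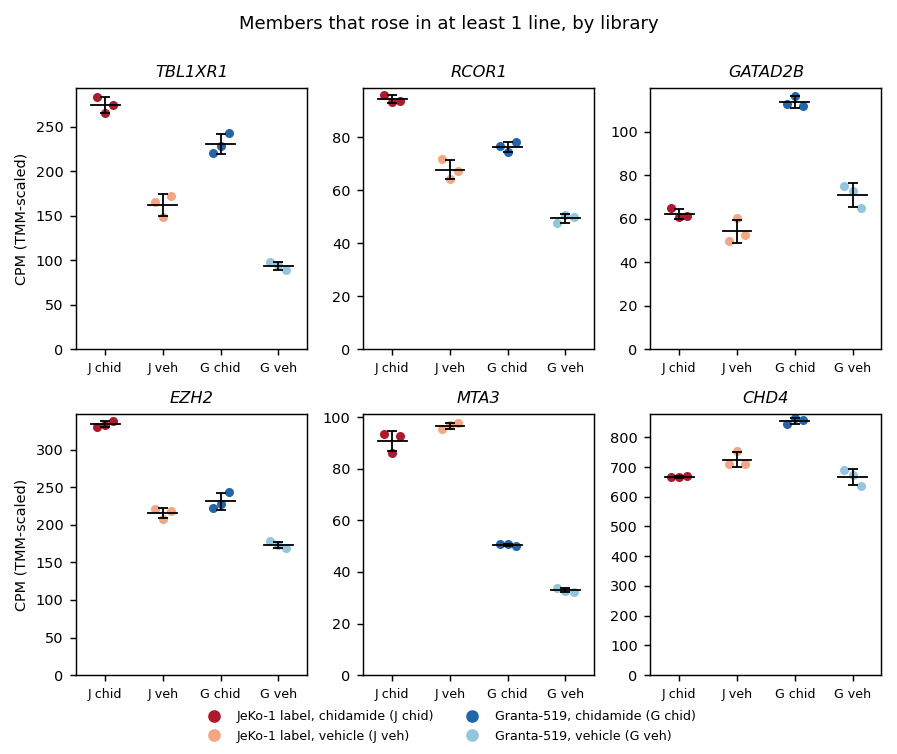
CPM in each of the 12 libraries of 6 members that rose in at least 1 line, drawn with chidamide left of vehicle, with points for libraries, lines for means and bars for SD (n = 3). TBL1XR1, RCOR1 and EZH2 are higher with chidamide in both lines, the JeKo-1 groups of GATAD2B lie close together, and MTA3 and CHD4 are higher with chidamide in Granta-519.

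Among the 9 acetyltransferases, which transfer acetyl groups to histones, 5 fell and 1 rose under the JeKo-1 label, and 5 fell and 0 rose in Granta-519, with median log2 changes of -0.35 and -0.40 in the same order. Of all tested genes 31.1% fell and 35.3% rose under the JeKo-1 label, and 31.3% fell and 39.6% rose in Granta-519. KAT2A, KAT5, KAT7, EP300 and CREBBP were the 5 that fell in each line. KAT2A (GCN5), the catalytic subunit of SAGA and ATAC, had 84.5, 88.9 and 79.3 CPM with chidamide under the JeKo-1 label, against 142, 149 and 154 CPM with vehicle. Its values in Granta-519 were 61.9, 59.7 and 59.0 CPM with chidamide, against 80.7, 77.8 and 80.6 CPM with vehicle. KAT2A was 1.76-fold lower under the JeKo-1 label and 1.32-fold lower in Granta-519, and the fall was the larger one under the JeKo-1 label (difference -0.41 ± 0.08, edgeR adjusted p = 1.35e-05). Its paralog KAT2B (PCAF) had 41.0 ± 1.1 CPM with chidamide and 33.2 ± 1.38 CPM with vehicle under the JeKo-1 label, a rise of 0.30 ± 0.07, and 15.5 ± 0.184 CPM with chidamide and 14.8 ± 0.386 CPM with vehicle in Granta-519, which did not pass (edgeR adjusted p = 0.551).

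KAT5 (TIP60), the acetyltransferase of NuA4 and a MYC cofactor, had 12.3, 11.9 and 13 CPM with chidamide under the JeKo-1 label, against 20.8, 21.2 and 21.1 CPM with vehicle. The Granta-519 libraries held 13.5, 13.8 and 14.4 CPM with chidamide, against 29.1, 26.8 and 26.9 CPM with vehicle. KAT5 was 1.70-fold lower under the JeKo-1 label and 1.98-fold lower in Granta-519 without overlap in either line (edgeR adjusted p = 6.3e-10 and 2.8e-14). The annotation places 32.2% of its exonic bases also in RNASEH2C on the other strand, and whether the counting used strand is not given in the sources used here. KAT7 (HBO1), which acetylates histone H3 with BRPF and ING partners, had 38.9, 41.0 and 41.2 CPM with chidamide under the JeKo-1 label, against 61.7, 58.2 and 60.5 CPM with vehicle. For Granta-519 the values were 39.1, 42.0 and 39.6 CPM with chidamide, against 63.1, 65.3 and 67.8 CPM with vehicle. Its levels were close in the 2 lines under either treatment, and KAT7 was 1.49-fold lower under the JeKo-1 label and 1.63-fold lower in Granta-519 with chidamide (edgeR adjusted p = 1.43e-11 and 1.26e-14). With vehicle KAT7 differed between the lines by -0.12 log2 units, which did not pass as reported (edgeR adjusted p = 0.0633) but did in 12 of 20 alternatives.

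EP300 and CREBBP are paralogous coactivators that acetylate enhancers. EP300 had 133 ± 1.75 CPM with chidamide and 169 ± 9.49 CPM with vehicle under the JeKo-1 label, and 116 ± 3.16 CPM with chidamide and 171 ± 5.03 CPM with vehicle in Granta-519, falls of 0.35 ± 0.05 log2 units under the JeKo-1 label and 0.55 ± 0.05 in Granta-519. CREBBP had 96.5 ± 2.77 CPM with chidamide and 128 ± 4.16 CPM with vehicle under the JeKo-1 label, and 119 ± 1.33 CPM with chidamide and 178 ± 2.84 CPM with vehicle in Granta-519, falls of 0.41 ± 0.05 log2 units under the JeKo-1 label and 0.57 ± 0.05 in Granta-519. The differences between lines of 0.20 for EP300 and 0.17 for CREBBP passed (edgeR adjusted p = 0.0124 and 0.0421), though leaving out 1 library ended the first call without JeKo-1 vehicle replicate 3 or Granta-519 vehicle replicate 2, and ended the second for 8 of the 12 libraries. KAT6A, KAT6B and KAT8, acetyltransferases of the MYST family like KAT5 and KAT7, had log2 changes of -0.10 to -0.01 in both lines and did not pass.

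PRC2 writes the repressive trimethyl mark on lysine 27 of histone H3, through EZH2 or EZH1 with SUZ12 and EED. EZH2 had 330.3, 333 and 339 CPM with chidamide under the JeKo-1 label, against 221, 208 and 218 CPM with vehicle. In Granta-519 it had 222, 228 and 244 CPM with chidamide, against 178, 173 and 169 CPM with vehicle. EZH2 was 1.55-fold higher under the JeKo-1 label and 1.33-fold higher in Granta-519 (edgeR adjusted p = 1.56e-19 and 1.45e-12), with the larger rise under the JeKo-1 label (difference 0.22 ± 0.06, edgeR adjusted p = 0.00292). EZH1, the catalytic paralog of non-dividing cells, had 47.1 ± 2.09 CPM with chidamide and 61.4 ± 1.90 CPM with vehicle under the JeKo-1 label, a fall of 0.38 ± 0.07. In Granta-519 EZH1 had 33.9 ± 1.49 CPM with chidamide and 36.4 ± 1.84 CPM with vehicle (edgeR adjusted p = 0.177).

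On the length-scaled score, EZH2 stood at 20.6 ± 0.35 with chidamide and 12.1 ± 0.42 with vehicle under the JeKo-1 label, against 2.06 ± 0.10 and 2.45 ± 0.06 for EZH1 in the same order. EED, the subunit that reads the mark, had 69.7 ± 4.11 CPM with chidamide and 56.6 ± 3.07 CPM with vehicle under the JeKo-1 label, a rise of 0.30 ± 0.06, and 51.6 ± 2.96 CPM with chidamide and 53.2 ± 0.643 CPM with vehicle in Granta-519, which did not pass (edgeR adjusted p = 0.558). SUZ12, the scaffold, had 168 ± 6.23 CPM with chidamide and 188 ± 12.3 CPM with vehicle under the JeKo-1 label, a fall of 0.17 that did not pass with upper-quartile or library-size scaling, on the score or without JeKo-1 vehicle replicate 3. In Granta-519 SUZ12 had 81.5 ± 4.25 CPM with chidamide and 88.1 ± 5.14 CPM with vehicle. That change of -0.11 ± 0.06 did not pass (edgeR adjusted p = 0.0646), though it did in 6 of 20 alternatives. The difference between the lines, -0.05 ± 0.07, did not pass. Reads of SUZ12 can be shared with its pseudogene SUZ12P1, which held 2194 counts over the 12 libraries against 22973 for SUZ12.

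DNA methylation is copied by DNMT1 with the help of UHRF1, laid down anew by DNMT3A and DNMT3B, and oxidised by the TET enzymes. For all 6 of these genes the change differed between the lines, where 39.5% of all tested genes differed. UHRF1, which reads half-methylated DNA, had 139, 151 and 143 CPM with chidamide under the JeKo-1 label, against 262, 282 and 269 CPM with vehicle. Granta-519 gave 328, 342 and 332 CPM with chidamide, against 449, 438 and 407 CPM with vehicle. UHRF1 fell in both lines, 1.88-fold under the JeKo-1 label and 1.29-fold in Granta-519 (edgeR adjusted p = 2.59e-25 and 2.2e-11), and by more under the JeKo-1 label (difference -0.54 ± 0.06). DNMT1 had 878, 857 and 863 CPM with chidamide under the JeKo-1 label, against 959, 1019.8 and 980.4 CPM with vehicle. Its values in Granta-519 were 661, 634 and 619 CPM with chidamide, against 553, 537 and 524 CPM with vehicle. The Granta-519 rise of 0.25 ± 0.04 (edgeR adjusted p = 5.51e-08) stood beside a fall of 0.19 ± 0.04 under the JeKo-1 label (edgeR adjusted p = 1.08e-05), which did not pass with upper-quartile or library-size scaling or on the score.

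DNMT3B had 84.7, 80.0 and 84.4 CPM with chidamide under the JeKo-1 label, against 39.6, 41.8 and 35.5 CPM with vehicle. The Granta-519 libraries held 31.0, 29.5 and 27.3 CPM with chidamide, against 9.12, 8.48 and 8.06 CPM with vehicle. DNMT3B was higher with chidamide in every library of each line, 2.13-fold under the JeKo-1 label and 3.42-fold in Granta-519 (edgeR adjusted p = 1.28e-20 and 9.37e-24), and the difference of -0.68 ± 0.12 passed (edgeR adjusted p = 3.92e-06). DNMT3A was near silent under the JeKo-1 label, with 39, 32 and 40 counts (2.30, 2.28 and 2.55 CPM) in chidamide libraries, against 18, 6 and 9 counts (1.23, 0.450 and 0.746 CPM) in vehicle libraries. In Granta-519 DNMT3A had 68.9, 66.3 and 66.1 CPM with chidamide, against 74.7, 70.9 and 77.2 CPM with vehicle. It was 2.87-fold higher with chidamide under the JeKo-1 label (edgeR adjusted p = 1.48e-06), a log2 change of 1.52 that ran from 0.82 on the score to 2.00 without JeKo-1 vehicle replicate 1. Its change of -0.15 ± 0.07 in Granta-519 (edgeR adjusted p = 0.0433) was called in only 7 of 20 alternatives, whose adjusted p reached 0.502.

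TET2 had 17, 15.3 and 17.1 CPM with chidamide under the JeKo-1 label, against 8.68, 9.60 and 6.88 CPM with vehicle. For Granta-519 the values were 51.7, 56.1 and 56.5 CPM with chidamide, against 61.3, 62.9 and 67.0 CPM with vehicle. TET2 was 1.96-fold higher under the JeKo-1 label (edgeR adjusted p = 1.6e-11) and 1.16-fold lower in Granta-519 (edgeR adjusted p = 0.00434), the second call being lost with upper-quartile scaling, on the score and without Granta-519 chidamide replicate 1. The difference between its changes, 1.19 ± 0.13 log2 units, passed (edgeR adjusted p = 3.43e-11). TET3 had 87.5 ± 4.94 CPM with chidamide and 87.7 ± 1.82 CPM with vehicle under the JeKo-1 label, a change of -0.01 that turned to 0.14 and 0.13 with upper-quartile and library-size scaling. In Granta-519 TET3 had 150.0 ± 2.28 CPM with chidamide and 201 ± 10.8 CPM with vehicle, a fall of 0.42 ± 0.05 (edgeR adjusted p = 2.26e-11).

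**Figure D4:**
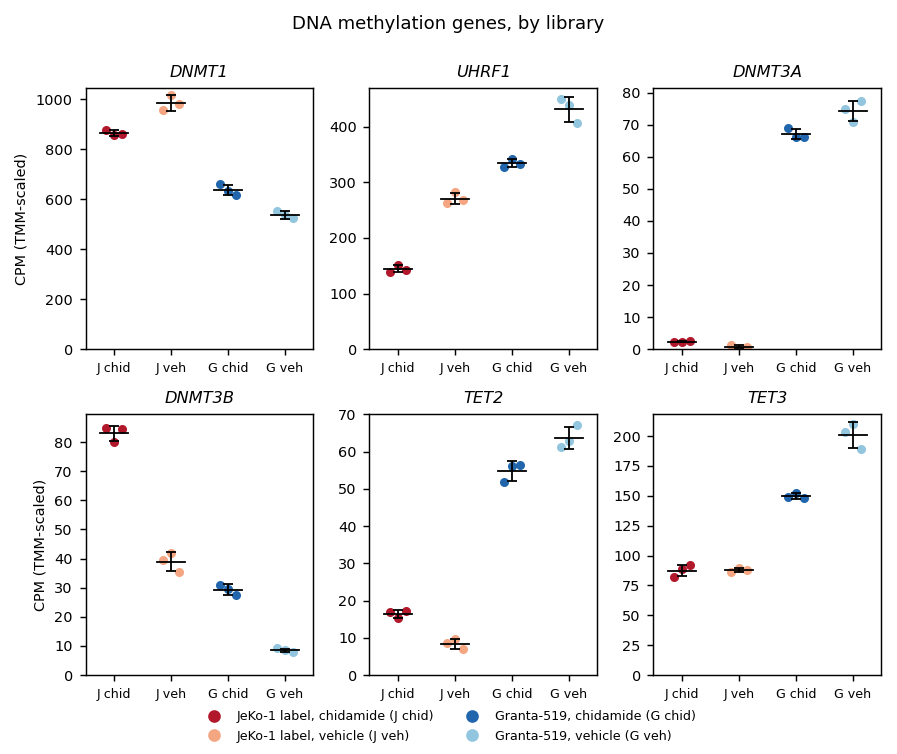
CPM of 6 DNA methylation genes in each of the 12 libraries, chidamide left of vehicle, with points for libraries, lines for means and bars for SD (n = 3) on axes that start at 0. DNMT3B rises in both lines, UHRF1 falls in both, and DNMT3A and TET2 lie far lower under the JeKo-1 label than in Granta-519 whatever the treatment.

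KMT2D, which writes monomethylated lysine 4 of histone H3 at enhancers, had 207, 217 and 214 CPM with chidamide under the JeKo-1 label, against 339, 343 and 338 CPM with vehicle. In Granta-519 it had 275, 276 and 271 CPM with chidamide, against 452, 455 and 413 CPM with vehicle. KMT2D was 1.60-fold lower under the JeKo-1 label and 1.61-fold lower in Granta-519 with chidamide (edgeR adjusted p = 3.03e-21 and 8.89e-22), and its changes differed by 0.01 ± 0.06 log2 units. SETDB1, which writes the trimethyl mark on lysine 9 of histone H3, had 69.6 ± 2.64 CPM with chidamide and 65.1 ± 3.01 CPM with vehicle under the JeKo-1 label, without a call (edgeR adjusted p = 0.149). It was called higher there in 4 of 20 alternatives. In Granta-519 SETDB1 had 68.2 ± 2.03 CPM with chidamide and 76.1 ± 4.82 CPM with vehicle, a fall of 0.16 that did not pass with RLE or upper-quartile scaling, in DESeq2, or without Granta-519 chidamide replicate 2 or 3 or vehicle replicate 1.

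Over all members, the change with chidamide differed between the lines for 27 of 50, where 39.5% of all tested genes differed, and was more positive under the JeKo-1 label for 14 and more negative for 13. That split, too, depends on scaling: it was 22 against 10 with library-size scaling, 23 against 9 without a count filter and 22 against 11 on the score. The 20.0% of all genes that were more positive and the 19.5% that were more negative are near equal in the scaling used here.

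In vehicle libraries 41 of 50 members differed between the lines, 22 higher and 19 lower under the JeKo-1 label than in Granta-519, where 79.8% of all tested genes differed, 35.5% higher and 44.3% lower. The split of the members turned with processing: 20 were higher and 24 lower with library-size scaling or on the score. With upper-quartile scaling 20 were higher and 21 lower, and without a count filter 20 and 23. Only RCOR2, DNMT3A, TET2 and DNMT3B among the members were at least 4-fold apart, where 23.4% of all genes were. DNMT3A was 89.3-fold lower under the JeKo-1 label than in Granta-519, with 33 counts in all against 3427 (edgeR adjusted p = 1.48e-43), a log2 difference of -6.48 that ran from -6.96 without JeKo-1 vehicle replicate 1 to -5.13 on the score. TET2 was 7.55-fold lower under that label and DNMT3B was 4.55-fold higher (edgeR adjusted p = 3.78e-35 and 2.95e-29). RCOR2, with 0 counts against 178, was at least 51.5-fold lower under the JeKo-1 label if the 178 counts are taken as exact.

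Between genes, levels were compared only per length, on the deposited score, and as a description. In vehicle libraries DNMT3B stood at 1.56 ± 0.12 and DNMT3A at 0.0253 ± 0.012 under the JeKo-1 label, whereas in Granta-519 DNMT3B stood at 0.378 ± 0.024 and DNMT3A at 2.56 ± 0.11. With chidamide DNMT3B reached 3.65 ± 0.12 and DNMT3A 0.0814 ± 0.0055 under the JeKo-1 label, and 1.29 ± 0.08 and 2.30 ± 0.05 in Granta-519. On the score, DNMT3B was thus the higher of this pair under the JeKo-1 label and DNMT3A in Granta-519, with either treatment. Across the members of vehicle libraries DNMT1 had the highest score in both lines, at 33.8 ± 0.94 and 20.4 ± 0.59. It was followed by RBBP7 at 28.6 ± 1.5 under the JeKo-1 label, and in Granta-519 by CHD4 at 20.2 ± 0.81, which lay within the spread of DNMT1. Counts over the score scaled with exonic length to within 25% for 40 of the 49 members with counts high enough to check. DNMT3A is not among the 40: the ratio was 2.78 per exonic kilobase for it, against 5.02 for DNMT3B. The score of DNMT3A is therefore high for its exonic length. With chidamide in Granta-519, DNMT3A had 67.1 CPM over 10736 exonic bases and DNMT3B 29.3 CPM over 4630, about level per base. The order of the pair there thus depends on the length used.

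**Figure D5:**
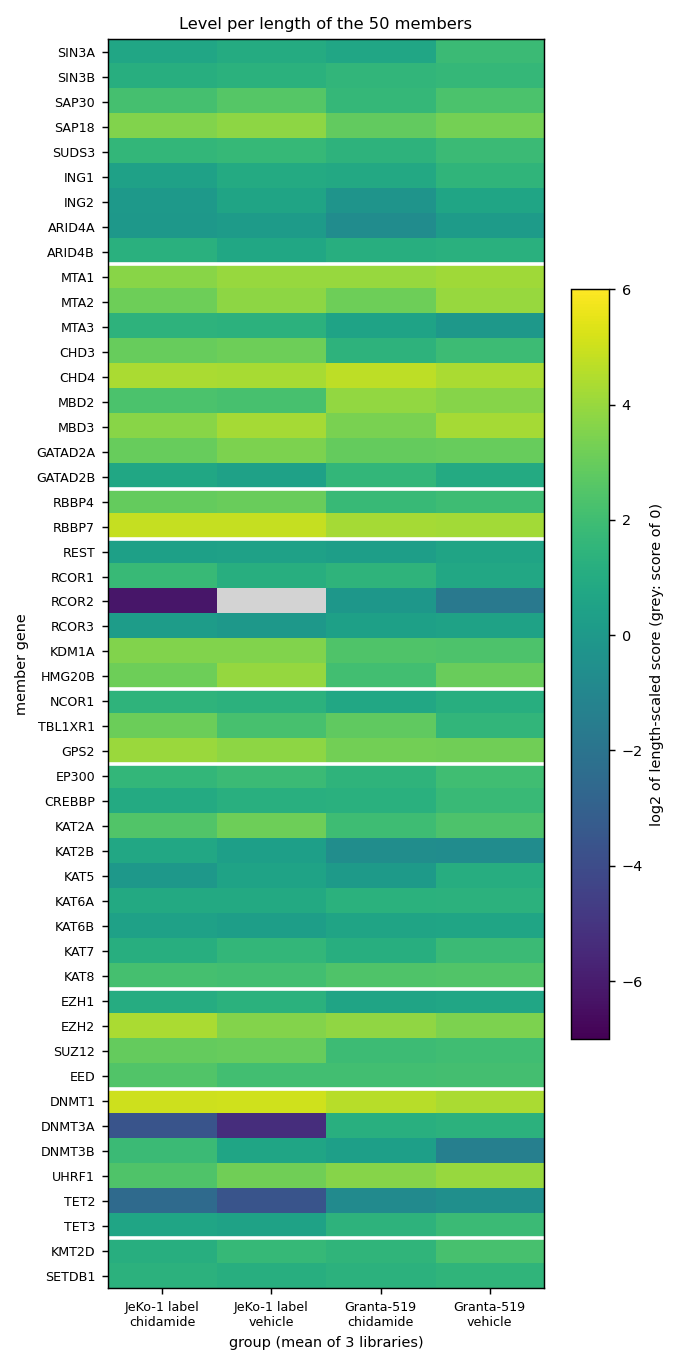
Log2 of the mean length-scaled score (n = 3) of the 50 members in the 4 groups, chidamide left of vehicle for each line, with white lines between complexes and grey for a score of 0. DNMT1, RBBP7 and CHD4 are among the brightest rows in all groups, whereas DNMT3A, TET2 and RCOR2 are dark under the JeKo-1 label.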

How the data were processed

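Per the labels, polyadenylated RNA was extracted with Trizol and sequenced on an Illumina protocol. The submitters' processing notes name STAR and the build hg19; the counting tool, its annotation and its use of strand are not given in the sources used here. The deposited count table holds the authors' raw counts per gene. A second deposited table is named for TPM, but its columns sum to 81790 to 84120, unlike TPM, so its values were treated as a length-scaled score of the authors. It served only for levels between genes and 1 alternative, with a pseudocount of 0.05. No spike-in was given.

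Counts were tested in edgeR 4.0.16 (R 4.3.3) with filterByExpr by group (15087 of 26364 genes kept), TMM scaling and a robust quasi-likelihood fit of 4 group means on all 12 libraries (8 residual degrees of freedom). The Benjamini-Hochberg adjustment ran over all tested genes, with a threshold of 0.05. CPM values are TMM-scaled, SD is over 3 libraries, and SE was back-calculated from the fold change and its F statistic. The fit was tested on simulated data. Alternatives used DESeq2 1.42.0, limma 3.58.1, other scalings, no filter, 2 groups, a replicate block and each library left out. Exonic overlaps came from a GENCODE annotation of GRCh38, not of the build hg19 named for the counts, and promoters came from RefSeq. Replicates of a group differed by more than sampling noise (chi-square per gene 1.63 to 5.63), so none were merged.

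Members and lists were chosen with earlier results of these data known. Values for every library are given for members past 0.05 and 1.5-fold in a drug comparison, called in opposite directions, or 4-fold apart in vehicle; of 87 other subunits, the 2 largest called rises and falls per line and the class I deacetylases are named. RCOR2 was named at its bound of 3 counts over the group.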

Additional observations from a re-analysis of the deposited data

Results flagged for a closer look

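For 27 members the change with chidamide differed between the lines by the interaction test in edgeR (adjusted p under 0.05), which is why they are listed here. Values are log2 change under the JeKo-1 label minus log2 change in Granta-519. Among SIN3 genes the difference was 0.69 for SIN3A, 0.54 for ARID4A and 0.48 for ARID4B. Among NuRD genes it was positive for CHD3 (0.25) and MBD3 (0.20). It was negative for MTA3 (-0.71), GATAD2A (-0.54), CHD4 (-0.48), GATAD2B (-0.48), MTA1 (-0.31) and MBD2 (-0.26). RBBP7 differed by -0.17. The NCoR genes went apart, with 0.26 for NCOR1 and -0.54 for TBL1XR1. Of the acetyltransferases, EP300 differed by 0.20, CREBBP by 0.17 and KAT2A by -0.41. In PRC2 the values were 0.34 for EED, 0.22 for EZH2 and -0.28 for EZH1. All 6 DNA methylation genes were on the list, at 1.67 for DNMT3A (0.97 on the length-scaled score), 1.19 for TET2, 0.42 for TET3, -0.43 for DNMT1, -0.54 for UHRF1 and -0.68 for DNMT3B. SETDB1 differed by 0.26.

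Of these 27, 19 passed under each of the 19 alternatives tried. The other 8 were MTA1, MBD2, MBD3, RBBP7, EP300, CREBBP, EZH1 and SETDB1, with CREBBP passing in 11 of 19, EZH1 in 12 and MBD3 in 13. Leaving out 1 library ended the call for MBD3 (JeKo-1 chidamide replicate 2, JeKo-1 vehicle replicate 1, Granta-519 chidamide replicate 1 or 3, Granta-519 vehicle replicate 1), for EZH1 (JeKo-1 chidamide replicate 2, Granta-519 chidamide replicate 1, Granta-519 vehicle replicate 3), for RBBP7 (JeKo-1 vehicle replicate 1) and for SETDB1 (Granta-519 vehicle replicate 1). It also ended the call for EP300 (JeKo-1 vehicle replicate 3, Granta-519 vehicle replicate 2). For CREBBP it did so without JeKo-1 chidamide replicate 1 or 3, JeKo-1 vehicle replicate 1 or 2, or replicate 1 or 2 of either Granta-519 group.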

How the results depend on the processing

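The counts of changed members stayed within 1.5-fold of those reported under every alternative tried: 37 to 40 under the JeKo-1 label, 34 to 44 in Granta-519 (44 without a count filter), 26 to 33 for the difference between lines and 41 to 44 between vehicle lines. Leaving out 1 library gave 37 to 39, 33 to 38, 24 to 27 and 40 to 42 in the same order. Calls held in every alternative for 30 of 39 (RCOR2, untestable in the 2-group fit, is not among the 30), 32 of 36, 19 of 27 and 39 of 41 members. Of the members without a call as reported, 5 of 11, 4 of 14, 9 of 23 and 4 of 9 stayed without one in every alternative. Over all genes, upper-quartile scaling gave 6536 higher and 3530 lower under the JeKo-1 label, against 5320 and 4696 as reported, and dropping the count filter moved the median change in Granta-519 by -0.11 log2 units. Replicate numbers did not pair the libraries (correlations of same-numbered libraries -0.03 to 0.04), and the fit with a replicate block called 40, 37, 29 and 41 members.

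Where a value was called as reported or under the alternative, its direction turned in the cases below, and the cause was not tested. Changes called in neither setting also turned, for 6 members under the JeKo-1 label (MTA3, KDM1A, NCOR1, KAT6A, KAT6B and KAT8), 10 in Granta-519, 11 for the difference between lines and 5 between vehicle lines. Under the JeKo-1 label, upper-quartile scaling, library-size scaling and the score gave 0.028, 0.013 and 0.016 for CHD4, 0.11, 0.10 and 0.10 for MBD2, and 0.048, 0.034 and 0.038 for RBBP7, and the 2 scalings gave 0.14 and 0.13 for TET3. Between vehicle lines, library-size scaling and the score gave -0.017 and -0.022 for CHD4, -0.14 and -0.14 for MTA1 (-0.10 without a filter) and -0.13 and -0.13 for SUDS3, and the score gave -0.0049 for MBD3. The difference for RCOR2, 2.78 in the count fit, was -1.13 on the score. The score fit adds 0.05 to every value, and RCOR2 under the JeKo-1 label scored only 0.0133 with chidamide and 0 with vehicle. For DNMT3A under that label the added 0.05 lies between its scores of 0.0814 with chidamide and 0.0253 with vehicle. Changes of these genes on the score therefore depend on that setting. Depth limits RCOR2 and DNMT3A under the JeKo-1 label, with 8 and 111 counts over the chidamide libraries and 0 and 33 over the vehicle libraries.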

Other observations

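The remaining subunits of the same complexes, 87 genes outside the list of 50, fell more often than they rose as well. Under the JeKo-1 label 43 fell and 27 rose, and in Granta-519 44 fell and 20 rose, beside 31.1% and 31.3% of all tested genes that fell and 35.3% and 39.6% that rose. The split of these 87 genes was not counted under the other scalings, on which the split of the members under the JeKo-1 label depends. Of 30 further acetyltransferase subunits 17 fell in each line, with 6 rising under the JeKo-1 label and 5 in Granta-519. BRMS1, a SIN3 subunit known as a metastasis suppressor, had 28.3 ± 0.85 CPM with chidamide and 75.4 ± 6.35 CPM with vehicle under the JeKo-1 label, and 22.8 ± 0.21 CPM with chidamide and 57.9 ± 1.74 CPM with vehicle in Granta-519 (SD, n = 3 each), falls of 1.41 and 1.35 log2 units (edgeR adjusted p = 2.91e-25 and 1.84e-23). ING5, a partner of KAT7 and KAT6A, fell by 1.36 and 0.94 log2 units (edgeR adjusted p = 1.08e-25 and 6.33e-19).

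CORO2A, an NCoR subunit, had 29 counts with chidamide and 2 with vehicle under the JeKo-1 label, and 22.2 ± 1.07 CPM with chidamide and 3.14 ± 0.38 CPM with vehicle in Granta-519, a rise of 2.82 ± 0.15 log2 units (edgeR adjusted p = 5.27e-24). CHD5, a remodeller best known from neurons, had 185 counts with chidamide and 43 with vehicle under the JeKo-1 label, a rise of 1.87 ± 0.29 (edgeR adjusted p = 1.29e-07), and a change of 0.37 ± 0.41 that did not pass in Granta-519 (edgeR adjusted p = 0.42). SUPT3H, a SAGA subunit, had 35 counts with chidamide and 13 with vehicle in Granta-519, a rise of 1.49 ± 0.51 (edgeR adjusted p = 0.00783). ZBTB38, a methyl-CpG-binding zinc-finger protein, had 15.0 ± 2.26 CPM with chidamide and 34.0 ± 1.40 CPM with vehicle in Granta-519, a fall of 1.18 ± 0.09 (edgeR adjusted p = 4.95e-17), and fell by 0.23 ± 0.09 under the JeKo-1 label (edgeR adjusted p = 0.0195).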
